A study of Mus musculus with 6 samples.

Results

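The genes described here are 10 members of the Wnt/β-catenin response and R-spondin reception machinery, measured in dental epithelial organoids (DEOs). They were picked by name, as *Lgr4*, *Lgr5*, *Lgr6*, *Rnf43*, *Znrf3*, *Axin2*, *Nkd1*, *Lef1*, *Tcf7* and *Sp5*, and each of the 10 matched 1 entry among 47360 gene symbols of the expression table. DEOs were grown in Matrigel for 14 days from dental epithelial stem cells of the apical incisor buds of 9-week-old female wild-type C57BL/6J mice. All media contained 50% Wnt3a-conditioned medium, 5% R-spondin1-conditioned medium, EGF at 100 µg per ml and Noggin, a BMP antagonist, at 200 µg per ml (+N). Dibenzazepine (DBZ), a γ-secretase inhibitor that prevents Notch receptor activation, was present in +ND and +NFD, at 10 µM by the labels and at 10 mM by the methods text. FGF10 at 100 µg per ml was present in +NF and +NFD. N-acetylcysteine and the ROCK inhibitor Y27632 were also in every medium, and the number of mice behind a culture was not given in the sources used here.

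Each medium was represented by 1 RNA-seq library. The spread between cultures of a medium is therefore unknown, and differences are given as sizes without p-values. No library without Wnt3a and R-spondin1 was analysed here, and the values therefore show how the genes stood under constant Wnt stimulation while FGF10 and Notch input were varied. The unit is FPKM, fragments scaled to transcript length and to the mapped fragments of the library, so levels can be compared between genes per length. In whole organoids, fewer cells of a type and less RNA per cell cannot be told apart.

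Wnt ligands bind Frizzled receptors and LRP5/6 and stabilise β-catenin, which joins TCF/LEF proteins on DNA and activates target genes. Several targets feed back on the pathway: *Axin2* encodes a scaffold of the complex that degrades β-catenin, *Nkd1* encodes a Dishevelled-binding inhibitor, and *Rnf43* and *Znrf3* encode membrane ubiquitin ligases that remove Frizzled. R-spondins bind LGR4, LGR5 or LGR6 together with these ligases and clear the ligases from the membrane, which raises the response to Wnt. *Lgr5* marks cycling stem cells in gut and hair follicle, and *Lgr6* marks stem cells in hair follicle and epidermis.

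*Sp5*, which encodes a zinc-finger factor that acts as a repressor in Wnt feedback, is shown first with its promoter because it was under the limit of detection in some media and clearly detected in others. *Axin2* is shown beside it as the feedback gene whose level hardly differed between media. The sequences are the 250 bases before the transcript start (RefSeq, GRCm38.p6, plus strand, 5′ to 3′), at chr2:70474673-70474922 for *Sp5* and chr11:108920099-108920348 for *Axin2*, with TCF/LEF core letters in capitals.
Sp5: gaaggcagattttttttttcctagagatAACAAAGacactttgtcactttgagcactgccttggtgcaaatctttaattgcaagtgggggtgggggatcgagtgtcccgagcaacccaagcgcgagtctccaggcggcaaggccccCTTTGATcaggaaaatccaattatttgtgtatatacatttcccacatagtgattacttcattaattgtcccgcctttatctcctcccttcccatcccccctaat
Axin2: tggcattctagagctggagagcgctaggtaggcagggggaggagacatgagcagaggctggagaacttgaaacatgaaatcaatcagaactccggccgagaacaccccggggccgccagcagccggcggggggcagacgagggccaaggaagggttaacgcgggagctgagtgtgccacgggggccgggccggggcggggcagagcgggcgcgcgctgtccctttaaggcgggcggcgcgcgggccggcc

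A TCF/LEF core was taken as CTTTGAA or its variant ending in T, namely CTTTGAT, and likewise as either CTTTGTA or the form ending in T, which is CTTTGTT, searched on both strands. The *Sp5* window held 2 matches, 1 starting 222 bases before the start on the opposite strand and 1 starting 104 bases before it. At least 1 match was found in 14.8% of all 32851 promoter windows of this length, and 2 or more in 1.43%. Windows were given for 8 of the 10 genes, with 13 windows in all because some genes have several starts, and the only other match lay before a downstream start of *Lef1*. The core of the Notch-dependent factor RBPJ, TGGGAA, occurred at 2 places in the *Sp5* window and at 1 in the *Lgr6* window. It occurred in 21.6% of all windows, and at 2 or more places in 2.77%. A match is a description of the sequence and was not tied to binding in these organoids, and the absence of a match in the *Axin2* window says only that these letters are not in this window.

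Of the libraries, +ND was the shallowest at 0.804 times the depth of +N by the size of the smallest FPKM steps, while +NF and +NFD were at 1.05 and 1.06 times. Between 12529 and 12959 genes reached an FPKM of 1. All 9 epithelial markers examined were at or above 1 FPKM in each library. Of these, *Cdh1*, *Epcam* and *Krt14* were at least 2-fold lower in +ND than in +N, and *Cdh1*, *Krt14* and *Sox2* were so in +NFD. Another 3, *Trp63*, *Krt17* and *Cdh3*, were higher than in +N in both media, none by 2-fold. *Trp63* was at 88.5 FPKM (+N), 166 (+ND) and 124 (+NFD), and *Krt17* at 954, 1822 and 1358. The 3 Notch targets that passed the filter, *Hes1*, *Notch3* and *Nrarp*, were lower in +ND than in +N, with *Nrarp* at 18.2 FPKM (+N), 2.80 (+ND), 9.12 (+NF) and 2.60 (+NFD). Ratios are differences of log2(FPKM + 1) between libraries, which understate differences of low genes. A gene entered a comparison if either library had it at 1 FPKM or more, and it is counted as called at a 2-fold ratio. Relative to +N, the median gene had a log2 ratio of 0.10 (+ND), 0.12 (+NF) and 0.18 (+NFD), so that ratios of this size lie at the centre of all genes.

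**Figure D1:**
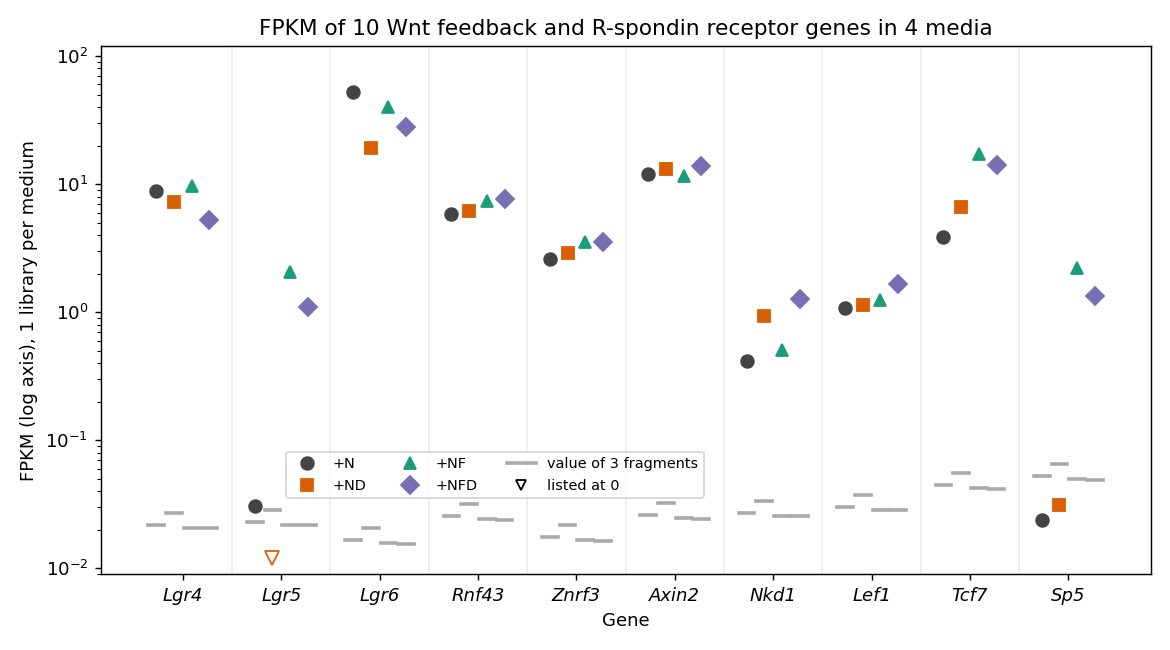
FPKM of the 10 genes (log axis) in +N, +ND, +NF and +NFD, 1 library per medium. Grey bars mark the FPKM that 3 fragments would give and the open triangle marks *Lgr5*, which is listed at 0 in +ND. *Lgr5* and *Sp5* lie above 1 FPKM only in +NF and +NFD, and *Lgr6* is the highest gene in all 4 media.

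The R-spondin receptors were represented mainly by *Lgr6*. *Lgr6* (chromosome 1, 134983301 to 135105276, GRCm38) was at 52.0 FPKM (+N), 19.2 (+ND), 40.0 (+NF) and 27.9 (+NFD). It was the highest of the 10 genes in every medium, and both media with DBZ were below both media without it. Of the FPKM summed over *Lgr4*, *Lgr5* and *Lgr6*, *Lgr6* made up 85.5% (+N), 72.6% (+ND), 77.3% (+NF) and 81.4% (+NFD). The summed level was 60.9 FPKM (+N), 51.7 (+NF), 34.3 (+NFD) and 26.5 (+ND), the same order of media as that of *Lgr6* alone. The FPKM summed over the 9 epithelial markers, most of it from *Krt14* and *Krt5*, had this order too, at 21759.8 (+N), 16786 (+NF), 14707 (+NFD) and 13776 (+ND), and its part in the levels of *Lgr6* and *Lgr4* was not tested.

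*Lgr4* (chromosome 2, 109917647 to 110014257), the broadly expressed member of the family, was at 8.78 FPKM (+N), 7.26 (+ND), 9.67 (+NF) and 5.28 (+NFD). Its lowest value was 1.83 times below its highest, and both media with DBZ were again below both media without it. *Lgr5* (chromosome 10, 115450311 to 115587780) had another pattern, at 0.0307 FPKM (+N), listed at 0 (+ND), 2.07 (+NF) and 1.10 (+NFD). The value in +N corresponds to about 4.01 fragments, and 3 fragments in +ND would give 0.0286 FPKM. *Lgr5* was thus at or near the limit of detection without FGF10 and clearly detected with it, at about 285 fragments in +NF and 152 in +NFD.

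With FGF10, *Lgr5* made up 4.01% of the summed receptor level in +NF and 3.20% in +NFD, against 0.0505% in +N. Even at its highest, it was far below *Lgr4* and *Lgr6*. Fragment numbers given here are approximate upper values, because they use the longest annotated transcript (4793 nt for *Lgr5*), and intervals and limits derived from them cover counting error only.

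The membrane ligases were the steadiest pair. *Rnf43* (chromosome 11, 87662722 to 87735539) was at 5.80 FPKM (+N), 6.14 (+ND), 7.36 (+NF) and 7.66 (+NFD). *Znrf3* (chromosome 11, 5276324 to 5444847) was at 2.62 FPKM (+N), 2.92 (+ND), 3.56 (+NF) and 3.54 (+NFD). Both genes were slightly higher in the media with FGF10, and their highest values were 1.32 and 1.36 times their lowest. The summed receptor level was 7.23 times the summed ligase level in +N, and 2.93, 4.74 and 3.06 times that level in +ND, +NF and +NFD. Most of this spread came from the receptors, since the ligase sum only went from 8.41 to 11.2 FPKM.

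*Axin2* (chromosome 11, 108920349 to 108950783), the most widely used readout of Wnt/β-catenin activity, was at 12.1 FPKM (+N), 13.2 (+ND), 11.6 (+NF) and 13.9 (+NFD). Its highest value was 1.20 times its lowest, the narrowest range of the 10 genes. Its log2 range of 0.24 compares with a median range of 0.56 over the 13748 genes that reached 1 FPKM in any library, of which 19.8% ranged over 2-fold or more. *Nkd1* (chromosome 8, 88521344 to 88594887), the other cytoplasmic inhibitor, was at 0.415 FPKM (+N), 0.931 (+ND), 0.511 (+NF) and 1.28 (+NFD). Both media with DBZ were above both without it, and without a pseudocount the ratio of +NFD to +N was 3.08, with a 95% counting interval from 2.21 to 4.39. *Nkd1* passed the filter only in the comparisons with +NFD, and its log2 ratio of +NFD to +N was 0.69.

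The TCF/LEF factors differed from each other. *Lef1* (chromosome 3, 131110471 to 131224356) was low and even, at 1.08 FPKM (+N), 1.14 (+ND), 1.24 (+NF) and 1.67 (+NFD). *Tcf7* (chromosome 11, 52252371 to 52283014), which encodes TCF1, was at 3.89 FPKM (+N), 6.66 (+ND), 17.3 (+NF) and 14.1 (+NFD). Both media with FGF10 were above both media without it, and *Tcf7* went from the fifth place among the 10 genes in +N to the second, above *Axin2*, in +NF and +NFD. *Tcf7* was 78.2% of the *Lef1* and *Tcf7* sum in +N and 93.3% in +NF.

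*Sp5* (chromosome 2, 70474923 to 70477729) was at 0.0240 FPKM (+N), 0.0312 (+ND), 2.22 (+NF) and 1.33 (+NFD). With its single annotated transcript of 2100 nt, the values without FGF10 correspond to about 1.37 fragments in +N and 1.43 in +ND, under the 3 fragments taken as the limit of detection. The values with FGF10 correspond to about 134 and 80.8 fragments. *Sp5* and *Lgr5* therefore shared a pattern of near absence without FGF10, the higher value in +NF and the lower value in +NFD.

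In +NF relative to +N, 3 of the 10 genes had a value past 2-fold higher, *Tcf7* with a log2 ratio of 1.90, *Sp5* with 1.65 and *Lgr5* with 1.58, and none was 2-fold lower. Of all 13090 genes in this comparison, 2.76% were at least 2-fold higher, 2.44% lower and 5.19% either, and 69 genes, *Tcf7* included, had a ratio as large as that of *Tcf7*. *Sp5* and *Lgr5* passed the filter on low values only through their level in +NF, so that they had to differ, and their ratios depend on the pseudocount. Without a pseudocount, *Tcf7* was 4.45 times higher, with a 95% counting interval from 3.89 to 5.11. *Lgr5* was 67.5 times higher, from 26.1 to 249.8, and *Sp5* was 92.7 times higher, from 22.4 to 5058. The *Sp5* value in +N was under the limit of detection, so the size of its ratio is uncertain. The other genes that passed the filter had log2 ratios from -0.37 for *Lgr6* to 0.33 for *Znrf3*, and *Nkd1* did not pass.

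FGF10 could also be compared in the presence of DBZ, between +NFD and +ND, which share no library with +NF and +N. Here *Sp5* and *Lgr5* were at least 2-fold higher, with log2 ratios of 1.18 and 1.07, and *Tcf7* was just under the limit at 0.98. Of all 13293 genes, 3.39% were at least 2-fold higher in +NFD, 3.11% lower and 6.5% either. Both genes passed only through +NFD, as *Sp5* and *Lgr5* were under 1 FPKM in +ND. *Lgr5* was at least 38.3-fold higher against the value of 3 fragments in +ND, and counting error in both libraries allows a ratio down to 30.8. That value rests on the longest transcript, and a shorter one would lower the fold. *Sp5* was 42.7 times higher without a pseudocount, with a counting interval from 10.7 to 2447, and *Tcf7* was 2.12 times higher, from 1.88 to 2.40. The *Sp5* value in +ND was under the limit of detection, so the size of its ratio is uncertain. When ratios were centred on the median of all genes, *Lgr5* was at 0.98, just under the limit, and *Sp5* at 1.08, above it.

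Among the 12635 genes that passed the filter in both FGF10 comparisons, 0.863% were at least 2-fold higher in both and 0.926% lower in both. *Sp5* and *Lgr5* were past 2-fold in both, but they passed the filter only through the media where they were high, so nothing is read from their place in this group. Over the 10 genes, 7 were higher with FGF10 both without and with DBZ, and none was lower in both. Of the 13748 genes that reached 1 FPKM in any library, 39.7% were higher in both and 15.5% lower in both. After centring, *Lgr5*, *Rnf43*, *Znrf3*, *Tcf7* and *Sp5* remained on the higher side in both, against 26.7% of genes, and *Axin2* was on the lower side in both, as were 26.7% of genes. *Lgr5* and *Sp5* reached 1 FPKM only with FGF10, and *Nkd1* only in +NFD. Their directions in those media were thus set by the 1 FPKM limit, and the counts of higher genes are not read against the shares.

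**Figure D2:**
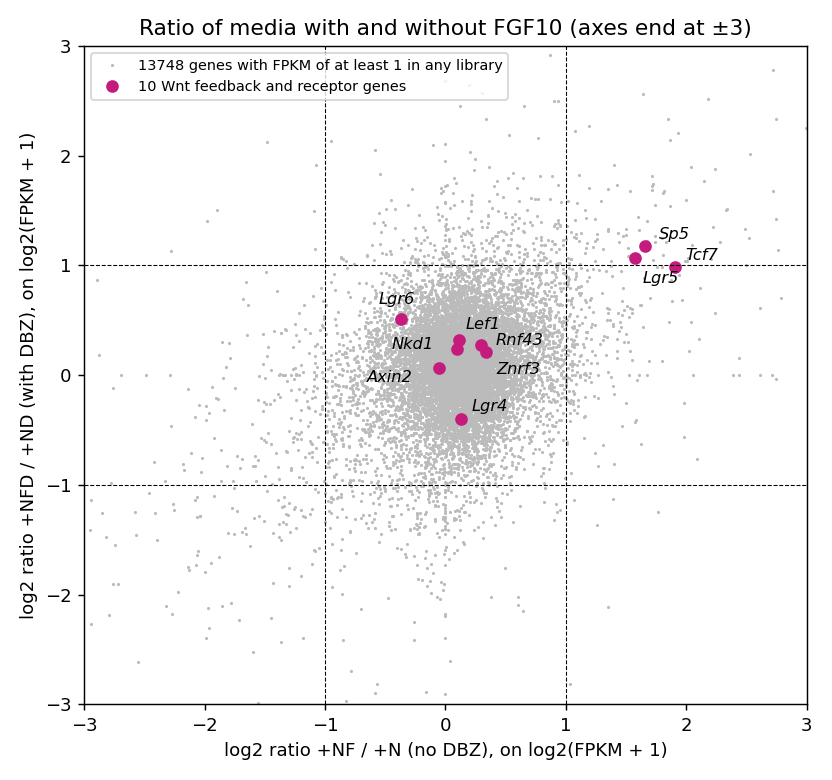
Log2 ratio of media with and without FGF10 on the log2(FPKM + 1) scale, in the absence of DBZ (+NF to +N, horizontal) and in its presence (+NFD to +ND, vertical), for 13748 genes (grey) and the 10 genes described (magenta). Dashed lines mark 2-fold and 102 genes lie outside the axes. *Sp5* (1.65 and 1.18), *Lgr5* (1.58 and 1.07) and *Tcf7* (1.90 and 0.98) stand together on the upper right, and the other 7 lie within 2-fold on both axes.

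In +ND relative to +N, *Lgr6* was the only gene of the 10 past 2-fold, with a log2 ratio of -1.39. It was at 0.370 of its +N level without a pseudocount, with a 95% counting interval from 0.354 to 0.386. Of all 13173 genes, 5.29% were at least 2-fold lower and 11.2% were called in either direction, so that 1 of the 7 genes that passed the filter is close to the background. *Tcf7* had a log2 ratio of 0.65, *Lgr4* of -0.24 and *Axin2* of 0.13. *Lgr5*, *Sp5* and *Nkd1* were below 1 FPKM in both libraries.

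In +NFD relative to +NF, which share no library with the pair above, none of the 10 genes reached 2-fold, against 6.41% of all 13349 genes, of which 3.72% were higher and 2.69% lower. Over both pairs, 2.13% of 12774 genes were at least 2-fold lower with DBZ and 1.84% higher, and none of the 10 genes was in either group. Over both pairs, *Lgr4*, *Lgr5* and *Lgr6* were lower with DBZ in each, as were 23.0% of all 13748 genes, and *Rnf43*, *Axin2*, *Nkd1* and *Lef1* were higher in each, as were 38.2%. After centring, *Sp5* joined the 3 lower genes and only *Axin2* and *Nkd1* remained higher, against 29.5% of all genes in either direction. *Lgr5* and *Sp5* were at or under the limit of detection or near it in +N and +ND. No direction is read from them in that pair, nor from their place in these counts. *Lgr6* and *Lgr4* had log2 ratios of -0.51 and -0.77 in +NFD relative to +NF, and without a pseudocount the counting intervals of these ratios, 0.673 to 0.722 and 0.499 to 0.596, lay below 1. *Nkd1* was in +NFD 2.51 times its level in +NF, from 1.84 to 3.42. *Lgr5* and *Sp5* were lower in +NFD than in +NF, with log2 ratios of -0.55 and -0.47.

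**Figure D3:**
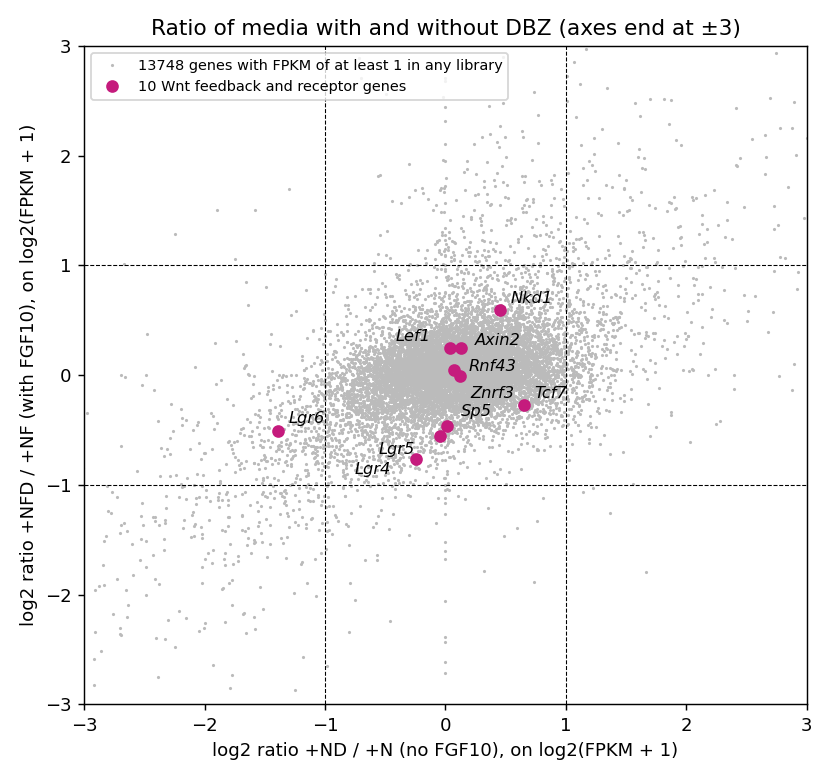
Log2 ratio of media with and without DBZ on the log2(FPKM + 1) scale, in the absence of FGF10 (+ND to +N, horizontal) and in its presence (+NFD to +NF, vertical), for 13748 genes (grey) and the 10 genes described (magenta). Dashed lines mark 2-fold and 195 genes lie outside the axes. *Lgr6* is past 2-fold on the horizontal axis only (-1.39 and -0.51), and *Nkd1* lies highest on the vertical axis (0.59).

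With both additions, in +NFD relative to +N, *Tcf7* (log2 ratio 1.63), *Sp5* (1.19) and *Lgr5* (1.02) were at least 2-fold higher, as were 5.85% of 13358 genes, with 4.03% lower and 9.88% either, and all 10 genes passed the filter. *Lgr6* and *Lgr4* had ratios of -0.88 and -0.64. *Sp5* and *Lgr5* again passed only through the medium with FGF10. After centring, *Lgr5* was at 0.85 and no longer past 2-fold, and *Lgr6* was at -1.06 and past 2-fold in the lower direction, so that 2 genes were higher and 1 lower instead of 3 and 0. This comparison shares its +NFD library or its +N library with each of the others.

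For *Tcf7* and *Lgr6*, the value with both additions departed most from the sum of the single differences. The ratio of DBZ with FGF10 minus that without FGF10, on the log2 scale, was -0.92 for *Tcf7*, -0.51 for *Lgr5*, -0.48 for *Sp5* and -0.52 for *Lgr4*. For *Lgr6* it was 0.88, with a smaller difference between media with and without DBZ when FGF10 was present. For *Axin2*, *Rnf43*, *Znrf3*, *Nkd1* and *Lef1* it lay between -0.12 and 0.21. None reached 1 in size on this scale, the share of all genes that did was not computed, and the variation between cultures is unknown.

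Profiles over the 4 libraries were compared with those of 10467 genes that reached an FPKM of 5, by the root mean square distance of centred log2(FPKM + 1) values. The closest to *Lgr5* were *Creb3l2* at a distance of 0.023, with 7.23 FPKM (+N), 6.92 (+ND), 22.6 (+NF) and 15.8 (+NFD), and then *Olfml2a* at 0.085 and *Tmem150c* at 0.093. The closest to *Lgr6* were *Cradd* at 0.050, *Gm15912* at 0.052 and *Bace2* at 0.053. *Bace2*, which encodes an aspartic protease, was at 11.5 FPKM (+N), 3.77 (+ND), 7.83 (+NF) and 5.68 (+NFD). The closest to *Axin2*, whose profile is nearly flat, were *Lactb* at 0.0040, *Mapkapk5* at 0.0069 and *Eif2b4* at 0.0080. With 4 libraries, such closeness is a description only. For *Lgr5* it also depends on the pseudocount, since *Lgr5* itself was 67.5 times higher in +NF than in +N in FPKM.

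Levels of marker lists differed between media as well, and their part in the results above was not tested. All 18 cell cycle markers had a higher value in +NF than in +N (median log2 ratio 1.00), and their summed level was 460 FPKM (+N), 793 (+ND), 914 (+NF) and 853 (+NFD). The 12 fibroblast markers summed to 172 FPKM (+N), 162 (+ND), 110 (+NF) and 465 (+NFD), and 10 of 12 were at least 2-fold higher in +NFD than in +N. *Nkd1*, *Lef1*, *Axin2* and *Rnf43* had their highest value in +NFD, where the fibroblast sum was highest. *Sp5*, *Lgr5*, *Tcf7*, *Znrf3* and *Lgr4* had theirs in +NF, where that sum was lowest, and *Lgr6* had its highest value in +N. *Lef1* and *Tcf7* are also T cell genes. The T cell genes *Cd3d*, *Cd3e* and *Cd3g* were listed at 0 in all 4 libraries, and of 12 lymphocyte markers only *Trbc2* was at or above 1 FPKM, at 13.3 in +N and 5.26 in +NF. Macrophage markers summed to between 496 FPKM in +NFD and 752 in +N, most of it from *Lyz2*, at 288 and 528. Of the 11 macrophage markers that passed the filter, 10 were higher and 1 lower in +NFD than in +NF. Endothelial markers summed to at most 1.54 FPKM and melanocyte and Schwann cell markers to at most 2.49.

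A further 97 Wnt pathway genes were found in the table, from lists of receptors, relay and destruction complex proteins, nuclear co-factors, inhibitors, R-spondins and reported targets. Of those that passed the filter, 5 of 66 were at least 2-fold higher and 0 lower in +NF relative to +N, 5 and 3 of 69 in +ND, and 12 and 1 of 73 in +NFD. The corresponding shares of all genes were 2.76% and 2.44% in +NF, 5.88% and 5.29% in +ND, and 5.85% and 4.03% in +NFD. Of the higher genes, *Shisa2* in +NF, *Sfrp1* in +ND, and *Shisa2*, *Rspo4* and *Ascl2* in +NFD were under 1 FPKM in +N. These passed the filter only through the medium where they were high and could only be higher. After centring, the pathway genes split into 4 higher and 1 lower in +NF, 4 and 6 in +ND, and 7 and 1 in +NFD. All genes then split into 248 higher and 412 lower of 13090 in +NF, 615 and 842 of 13173 in +ND, and 540 and 714 of 13358 in +NFD. In +NFD relative to +NF, 3 were higher and 2 lower of 73, where 3.72% and 2.69% of all genes were. Relative to +ND, 5 were higher and 1 lower of 71, where 3.39% and 3.11% of all genes were. *Rspo4* in both comparisons and *Sfrp2* in the one with +ND passed the filter only through +NFD and could only be higher. These counts are therefore not read against the shares. The median log2 ratio of the 66 genes in +NF was 0.14, close to the 0.12 of all genes.

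Of the 16 relay and destruction complex genes that passed the filter, none was called in +ND or +NF relative to +N, where 11.2% and 5.19% of all genes were. In +NFD relative to +N only *Dvl2* was called, at 6.42 FPKM in +N and 14.2 in +NFD, against 9.88% of all genes, and with so few genes these counts are near the background. Below 2-fold the genes still differed, with log2 ratios in +ND from -0.63 for *Amer1* to 0.85 for *Csnk1e*. *Ctnnb1*, which encodes β-catenin, had log2 ratios between -0.46 and 0.19 over the 5 comparisons. None of the 12 or 13 nuclear co-factors that passed the filter was called in any comparison, against 5.19% to 11.2% of all genes. With so few genes this is near the background as well. The other TCF genes *Tcf7l1* and *Tcf7l2* were within 4.77 to 7.13 and 3.49 to 4.50 FPKM, so that *Tcf7* was the TCF/LEF gene with the widest range. Among receptors, *Fzd7* was at 17.5 FPKM (+N), 12.5 (+ND), 45.5 (+NF) and 25.1 (+NFD), and *Fzd4* was at 6.61, 1.72, 10.8 and 4.47. *Fzd7* was highest in +NF and next in +NFD, as *Lgr5* was, and no order of +N and +ND is read for *Lgr5*.

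Of the secreted and membrane inhibitors that passed the filter, 3 of 11 were at least 2-fold higher in +ND, 3 of 10 in +NF and 6 of 12 in +NFD, each relative to +N, and none was lower. The shares of all genes that were higher were 5.88%, 2.76% and 5.85%. *Sfrp1* in +ND and *Shisa2* in +NF and +NFD were under 1 FPKM in +N. They passed only through the medium where they were high and could only be higher, so the counts are not read against the shares. *Sostdc1*, which encodes an inhibitor of BMP and Wnt signalling expressed in tooth epithelium, was at 8.33 FPKM (+N), 42.1 (+ND), 43.0 (+NF) and 62.7 (+NFD). *Shisa2*, whose product retains Frizzled and FGF receptors in the endoplasmic reticulum, was at 0.250, 1.03, 2.90 and 1.74 FPKM. *Apcdd1*, a membrane inhibitor and itself a reported target, was at 1.41, 7.82, 1.90 and 15.5 FPKM, and was thus high where DBZ was present. *Wif1* and *Notum*, which encode a Wnt-binding protein and a Wnt deacylase, were highest in +NFD, at 44.6 and 81.0 FPKM against 20.7 and 40.5 in +N, and *Notum* had a log2 ratio of 0.98 on the log2(FPKM + 1) scale and was not called. *Sfrp1*, which encodes a secreted Wnt-binding protein, was highest in +ND at 4.44 FPKM, against 0.270 in +N, 0.281 in +NF and 1.14 in +NFD.

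Reported targets outside the 10 genes differed one by one. Relative to +N, 3 were at least 2-fold higher and 2 lower of 20 that passed the filter in +ND, and 5 and 1 of 20 in +NFD. In +NF, 1 of 18 was higher and 0 lower. The shares of all genes were 5.88% and 5.29% in +ND, 5.85% and 4.03% in +NFD, and 2.76% and 2.44% in +NF. Some genes passed only through the medium where they were higher, *Ascl2* in +NFD among them, so the counts are not read against the shares. The gene higher in +NF was *Tnfrsf19*, which encodes the receptor TROY and was at 2.45 FPKM (+N), 7.87 (+ND), 22.8 (+NF) and 13.4 (+NFD). The order of media with FGF10 was that of *Tcf7*, *Sp5* and *Lgr5*. *Myc*, *Ccnd1* and *Cd44* had log2 ratios within -0.94 to 0.50 in all 5 comparisons. *Sox9* was at 21.4 FPKM in +N and 21.6 in +NF but at 1.45 in +ND and 2.81 in +NFD, lower with DBZ in both pairs as *Lgr6* was. Of the R-spondin genes, *Rspo4* was at 0.0160 FPKM (+N), 0.434 (+ND), 0.0784 (+NF) and 3.84 (+NFD), and *Rspo1* reached 1.00 in +NFD.

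**Figure D4:**
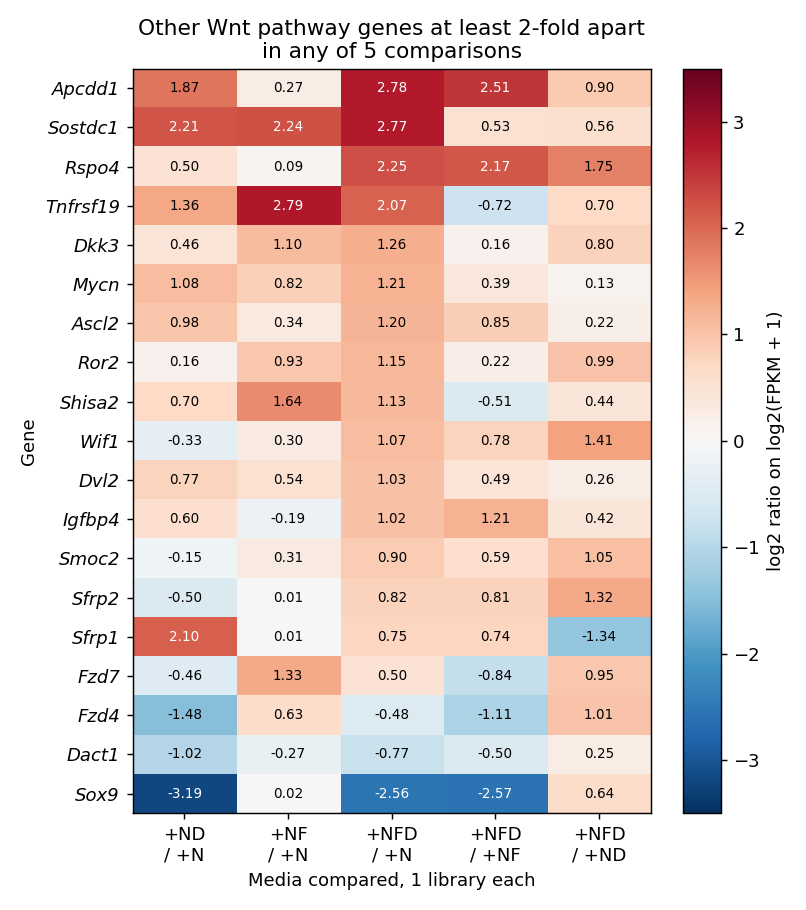
Log2 ratios on the log2(FPKM + 1) scale of the 19 other Wnt pathway genes that were at least 2-fold apart in any of the 5 comparisons (columns), with red for higher and blue for lower in the first medium named, 1 library each. *Tnfrsf19* has the largest ratio in +NF to +N (2.79), *Apcdd1* and *Sostdc1* are highest in +NFD to +N (2.78 and 2.77), and *Sox9* is lowest in +ND to +N (-3.19).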

How the data were processed

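RNA of DEOs in 4 media was analysed, with 1 library per medium, and the 2 media of the series with Jagged1 were not analysed here. Per the labels and methods, the authors checked reads with FastQC 0.11.9, trimmed them with Trim Galore 0.6.5, used TopHat2 2.1.1 for alignment to GRCm38, and took abundance from Cufflinks. The deposited values are FPKM per gene. The annotation release and strand setting are not given in the sources used here, so overlapping genes can share fragments; entries overlapping the 10 genes reached at most 0.256 FPKM (*Gm11670*, antisense to *Axin2*). Entries with the same symbol were summed (123 symbols, none of the 10 genes).

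Ratios used a pseudocount of 1 and a filter at 1 FPKM, over all genes; 2-fold is the limit used in the study. No test was made, since 1 library per medium gives no replicate error. Depth was taken from FPKM steps of 8367 genes with a single transcript of at least 1000 nt (GENCODE M21), and counting intervals at 95% (exact binomial) use those steps with the longest transcript. The limit of detection is 3 fragments. Named were the 10 genes, pathway genes at least 2-fold apart (at most the 4 largest per list and comparison), the 3 closest profiles of 3 genes, and markers; *Ctnnb1*, *Tcf7l1*, *Tcf7l2*, *Myc*, *Ccnd1*, *Cd44*, *Notum*, *Rspo1*, *Trbc2*, *Amer1*, *Csnk1e* and *Gm11670* were named after their values were seen. The 10 genes and the lists were chosen with earlier results of these data known. One epithelial marker is not reported here.

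Promoter windows are from RefSeq. Ratio code was tested on simulated data, where 200 of 200 genes changed 4-fold among 9241 were called for +NF against +N and 0 others were. Only genes at 5 FPKM or more in +N were simulated, with small noise and changes well past the 2-fold limit. This checks the code and gives no error rate for low genes such as *Lgr5* and *Sp5* or for variation between cultures. Values were computed in Python 3.11.15 (scipy 1.17.1, pandas 2.3.3, numpy 2.4.6) and drawn with matplotlib 3.10.9.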

Additional observations from a re-analysis of the deposited data

Results flagged for a closer look

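Some genes were listed in opposite directions for the same addition depending on the other, which was not tested since each value rests on 2 single libraries. For FGF10, the log2 ratio without DBZ and with DBZ was -0.37 and 0.51 for *Lgr6*, 0.13 and -0.40 for *Lgr4*, and -0.053 and 0.066 for *Axin2*. For DBZ, the ratio without FGF10 and with FGF10 was 0.65 and -0.27 for *Tcf7*, 0.12 and -0.0069 for *Znrf3*, and 0.010 and -0.47 for *Sp5*, whose values without FGF10 are under the limit of detection. The opposite ratios of *Axin2* and *Znrf3* are smaller than the shift of all genes between some media.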

How the results depend on the processing

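Each medium has 1 library, so none was left out, and depth limits the ratios of *Lgr5* and *Sp5*. No paired analysis was possible because the media share only 1 replicate number. An additive fit of FGF10 and DBZ over the 4 libraries, which would take the departure from additivity as its error, was not run. Alternatives were centring on the median of all genes, upper-quartile scaling, a pseudocount of 0.1 or none, a low-value filter at 5 FPKM or none, and the highest entry per symbol in place of the sum. In +ND relative to +N, *Lgr6* alone of the 10 genes was called under each of these settings. With the filter at 5, which leaves fewer genes, the number of the 10 genes called was 1 instead of 3 in +NF and in +NFD relative to +N (*Tcf7* in both) and 0 instead of 2 in +NFD relative to +ND, where centring gave 1 (*Sp5*). In +NFD relative to +NF, 1 gene (*Nkd1*) was called instead of 0 with a pseudocount of 0.1 and with none. Departures from additivity of at least 1 numbered 1 (*Tcf7*) with a pseudocount of 0.1 and 2 (*Sp5* and *Tcf7*) with none, instead of 0. The share of all genes with such a departure was not computed, so nothing is read from these counts. The departure of *Sp5* rests on about 1.37 fragments in +N and 1.43 in +ND, under the limit of detection. For the other pathway genes the counts, with a pseudocount of 0.1 and with none, were 13 and 15 instead of 8 in +ND relative to +N, 21 and 22 instead of 13 in +NFD relative to +N, and 11 and 13 instead of 5 in +NFD relative to +NF. The share of all genes called rose as well, to 16.5% and 16.7% instead of 11.2% in +ND relative to +N. It was 15.1% and 15.1% instead of 9.88% in +NFD relative to +N, and 9.51% and 9.37% instead of 6.41% in +NFD relative to +NF. In +NFD relative to +ND the count was 10 without a pseudocount and 2 with the filter at 5, instead of 6. The shares of all genes there were 10.7% and 5.97%, instead of 6.5%. The filter at 5 gave 5 in +ND and centring gave 8 in +NFD, both relative to +N, where 11.3% and 9.39% of all genes were called. Over all genes, centring changed the split of higher and lower from 361 and 319 to 248 and 412 in +NF, from 774 and 697 to 615 and 842 in +ND, from 782 and 538 to 540 and 714 in +NFD, each relative to +N, and from 450 and 414 to 345 and 506 in +NFD relative to +ND. Of 300 recomputed ratios of the 10 genes, 35 differed by more than 0.5 of the width of their counting interval on the log2 scale. For *Lgr5* and *Sp5* this limit can be very wide or unbounded. The ratio of *Sp5* in +NF relative to +N went from 1.65 to 4.23 with a pseudocount of 0.1 and was not among the 35. None of a called gene changed sign, but called *Lgr5* and *Sp5* passed the filter only through the medium where they were high and could not change sign.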
